A study of Mus musculus with 18 samples.

Results

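The genes described here are 6 members of the mouse Ifi200 family, also called the PYHIN family, namely Ifi203 (ENSMUSG00000039997), Ifi204 (ENSMUSG00000073489), Ifi205 (ENSMUSG00000054203), Ifi207 (ENSMUSG00000073490), Ifi211 (ENSMUSG00000026536) and Mndal (ENSMUSG00000090272). They were chosen by gene symbol from the 57180 genes of the deposited table, which holds 14 genes of the family in all, and each of the 6 symbols matched 1 row. PYHIN proteins carry a HIN domain, which binds double-stranded DNA, and most of them also carry a pyrin domain, through which they join other proteins. The family is known for interferon-inducible genes and for DNA sensors, of which Aim2, which assembles an inflammasome on cytosolic DNA, is the best known. In the mouse the family has expanded into a cluster of similar genes, so reads from 1 member can match another.

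The cells were L929, a mouse fibroblast line labelled wild type, and RNA was sequenced from 3 independent cultures in each of 6 groups. The Mock group received the solvent DMSO. The AOA group received aminooxyacetic acid (AOA), an inhibitor of aminotransferases, at 0.5 mM, and the AOA+Asp group received AOA with aspartate (Asp) at 20 mM. The HT-DNA group received DNA of herring testis (HT-DNA) by lipid transfection, a double-stranded DNA that activates the sensor cGAS, at 0.5 μg/ml for 6 h. The HT-DNA+AOA group received AOA 1 h before HT-DNA, and the HT-DNA+AOA+Asp group also received aspartate. A pretreatment of 1 h is recorded for each group with AOA, and the total time in AOA without HT-DNA is not. No group received aspartate alone or aspartate with HT-DNA alone. None is labelled as given the lipid without DNA, so effects of the DNA and of the lipid cannot be told apart. L929 is a single line, so the p-values measure the spread between cultures of that line.

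The libraries held 17901605 to 24057343 estimated counts, and 14263 genes passed the filter on low counts. Of the 9 fibroblast markers checked, 8 had a mean of at least 1 CPM (TMM-normalised counts, scaled to a common library size), the exception being Thy1. The leukocyte markers Ptprc and Adgre1 were at 0 in all 18 libraries, and among the 8 leukocyte markers only Cd68 reached a mean of 1 CPM. Between HT-DNA and Mock, 48.2% of the genes tested differed. DNA changed 13.5% of the genes in cells given AOA and 3.45% in cells given AOA and aspartate. Shares near 48.2% also arose without the HT-DNA group, at 45.7% for AOA against Mock and 47.7% for aspartate added to HT-DNA and AOA. Of 8 fibroblast markers tested, 2 (Vim and S100a4) were higher in HT-DNA than in Mock and 3 (Pdgfra, Pdgfrb and Col1a2) were lower, and the summed level was 6357 to 6920 CPM in HT-DNA and 5331 to 5786 CPM in Mock. Whether the differences between HT-DNA and Mock belong to the treatment or to the 3 HT-DNA libraries cannot be told apart. DNA responses of the members are therefore given with the comparisons that do not use the HT-DNA group.

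The promoters of the members are shown first, because they show how alike the genes of this cluster are in sequence. RefSeq (GRCm38.p6) gave windows from 250 bases before to 50 bases after the transcription start for 5 of the 6 members, all on the minus strand of chromosome 1. Capitals mark matches to GAAANNGAA, the core of the element bound by interferon regulatory factors, searched on both strands. For Ifi203 and Mndal, each with 2 windows, the window whose match is in the forward direction is printed.
Ifi203 promoter, chr1:173942443-173942742: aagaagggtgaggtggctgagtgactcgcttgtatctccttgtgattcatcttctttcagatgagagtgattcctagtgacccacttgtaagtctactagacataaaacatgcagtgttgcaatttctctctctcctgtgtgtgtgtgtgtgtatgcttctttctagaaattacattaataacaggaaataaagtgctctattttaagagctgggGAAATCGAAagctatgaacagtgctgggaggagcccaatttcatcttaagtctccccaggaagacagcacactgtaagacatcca
Mndal promoter, chr1:173880138-173880437: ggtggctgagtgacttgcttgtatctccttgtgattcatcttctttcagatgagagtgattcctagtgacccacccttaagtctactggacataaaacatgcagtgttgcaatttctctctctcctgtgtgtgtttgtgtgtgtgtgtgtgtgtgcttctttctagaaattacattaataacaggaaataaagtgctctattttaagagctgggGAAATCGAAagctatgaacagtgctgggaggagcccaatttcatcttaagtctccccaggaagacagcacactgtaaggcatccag
Ifi211 promoter, chr1:173912997-173913296: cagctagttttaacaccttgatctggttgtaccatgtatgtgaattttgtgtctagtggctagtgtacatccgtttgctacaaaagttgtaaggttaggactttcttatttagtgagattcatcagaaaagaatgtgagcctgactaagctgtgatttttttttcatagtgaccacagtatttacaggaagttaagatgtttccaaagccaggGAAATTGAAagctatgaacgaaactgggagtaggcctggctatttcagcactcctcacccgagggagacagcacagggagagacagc
Ifi207 promoter, chr1:173741760-173742059: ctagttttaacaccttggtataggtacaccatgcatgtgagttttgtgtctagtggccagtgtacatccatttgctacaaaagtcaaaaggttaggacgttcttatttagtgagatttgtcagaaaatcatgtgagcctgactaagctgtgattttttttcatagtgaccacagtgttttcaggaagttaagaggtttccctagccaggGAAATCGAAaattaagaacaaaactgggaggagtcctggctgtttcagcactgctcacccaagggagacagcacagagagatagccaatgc
Ifi205 promoter, chr1:174031706-174032005: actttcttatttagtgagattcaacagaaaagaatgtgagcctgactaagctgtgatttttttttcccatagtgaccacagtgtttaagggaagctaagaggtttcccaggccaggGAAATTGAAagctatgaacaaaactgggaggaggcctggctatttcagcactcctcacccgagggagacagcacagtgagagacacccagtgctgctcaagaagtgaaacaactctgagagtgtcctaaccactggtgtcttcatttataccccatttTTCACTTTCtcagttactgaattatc

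The element lay close to the start in 4 of these windows. Its first base was at -35 in Ifi203, at -36 in Mndal, at -37 in Ifi211 and at -41 in Ifi207, counted from the transcription start, and at -134 in Ifi205, which had another match on the reverse strand at 24. The matched letters were GAAATCGAA in Ifi203, Mndal and Ifi207 and GAAATTGAA in Ifi211 and Ifi205. Of 32851 mouse promoter windows of the same length, 8.56% held the element in either orientation. The printed windows of Ifi203 and Mndal were chosen by their match, so no count of windows is set against this share. The family genes Ifi206, Ifi208, Ifi213 and Ifi214, with at most 6 counts in any library, held GAAATCGAA too, at -40, -58, -73 and -79. The other window of Mndal had a match on the reverse strand at -53 and that of Ifi203 had none. A match is a description of the letters and not a site shown to be bound.

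The 5 windows fell into a pair of groups by sequence. The Ifi203 and Mndal windows were 94.3% identical over 299 alignment columns. Those of Ifi205 and Ifi211 were 93.1% identical over 203 columns, those of Ifi207 and Ifi211 87.5% over 297, and those of Ifi205 and Ifi207 86.6% over 209. Across the groups, Ifi203 and Ifi211 were 57.7% identical over 319 columns. The Ifi203 and Mndal windows also held a match to TGANTCA, at -208 and -219, with the letters TGATTCA in both. This pattern is looser than the AP-1 element, whose middle letter is G or C. It was in 7.81% of all windows and in none of the Ifi205, Ifi207 and Ifi211 windows. The other windows of Ifi203 and Mndal held it at -28 (TGATTCA) and -61 (TGAGTCA), and the window of the family gene Ifi209 held it too (TGACTCA).

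The transcripts of the members share longer stretches. In GENCODE vM21, 78.9% of the 31-base sequences of Ifi211 also occurred in another member, compared with 28.6% for Ifi204, 23.98% for Mndal, 22.1% for Ifi205, 12.2% for Ifi207 and 7.21% for Ifi203. The longest run in common was 495 bases between Ifi205 and Ifi211, followed by 306 bases between Ifi204 and Ifi211. Ifi203 and Mndal had 180 bases in common, and Ifi207 and Mndal had 37. The pseudogene Ifi203-ps shared 42.9% of its 31-base sequences with Ifi203. By contrast, Ifi202b and Aim2 shared none with any of the 6 members.

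**Figure D1:**
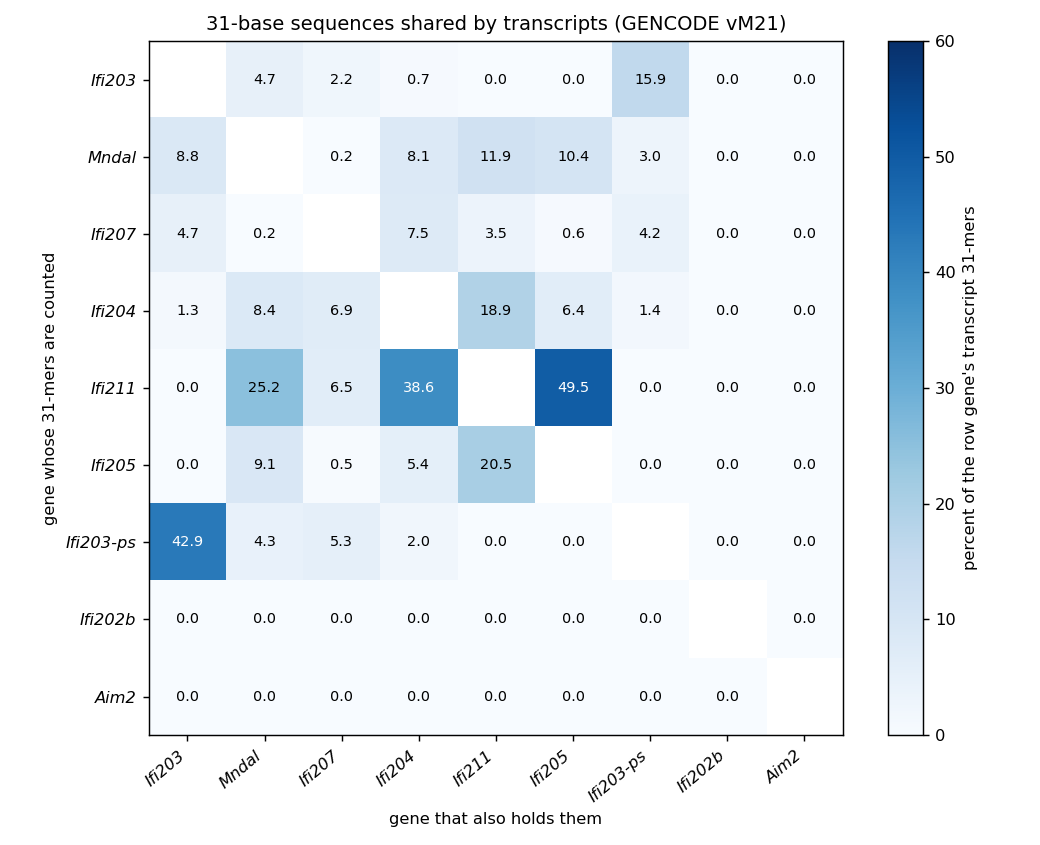
Percentage of each row gene's transcript 31-base sequences that also occur in the column gene, for the 6 members, the pseudogene Ifi203-ps, Ifi202b and Aim2 (GENCODE vM21). Ifi211 has the fullest rows, with 49.5% in Ifi205 and 38.6% in Ifi204, and the rows of Ifi202b and Aim2 hold only 0.0.

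Estimated counts that are not whole numbers arise where a counting program divides reads among genes. The value was not a whole number in 18 of 18 libraries for Ifi203, Ifi204 and Mndal, in 17 for Ifi211, in 13 for Ifi207 and in 4 for Ifi205. Ifi205 was above 0 in only 11 libraries. Of all nonzero values in the deposited table, 32.9% were not whole. For Ifi202b this was so in 1 library. The levels of single members therefore depend in part on how the authors' program assigned shared reads, and the effect of that step was not tested.

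Per length, Ifi204 and Ifi203 were the most abundant of the 6 members in Mock cells. Ifi204, the best studied of them and a homologue of human IFI16, had 14.6 ± 1.22 CPM per kilobase of merged exons (SD, n = 3), and Ifi203 had 13.0 ± 1.02. Their ranges overlapped. Ifi211 followed with 8.59 ± 0.623 CPM per kilobase, Mndal with 5.26 ± 0.600 and Ifi207 with 3.25 ± 0.0807, while Ifi205 was near 0. Merged exons cover all annotated transcripts, 6706 bases for Ifi203 and 3561 for Ifi204, so the order depends on the annotation. Without division by length, Ifi203 had a mean of 87.5 CPM in Mock and Ifi204 52.0. In HT-DNA+AOA cells Ifi203 led with 54.0 ± 12.9 CPM per kilobase, Ifi204 had 38.2 ± 4.22, and Ifi207 had 25.0 ± 7.88. In Mock, all 6 were below the family genes Ifi202b and Aim2, which had 59.4 ± 9.73 and 16.1 ± 0.494 CPM per kilobase.

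Ifi203 and Mndal were highest in HT-DNA+AOA, followed by AOA. Ifi203, whose product is a nuclear HIN protein, had 86.7, 81.1 and 94.7 CPM in the 3 Mock libraries. It had 192, 175 and 209.6 CPM in AOA, and 458, 339 and 289.8 CPM in HT-DNA+AOA. The 3 groups did not overlap. In the remaining groups it stayed near Mock, with 74.6, 69.8 and 67.4 CPM in AOA+Asp, 71.4, 85.6 and 73.6 in HT-DNA, and 81.1, 90.4 and 85.5 in HT-DNA+AOA+Asp. In the order of means from Mock downwards, each of these groups overlapped with its neighbour, while AOA+Asp lay below Mock without overlap.

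Mndal, named for its likeness to the human myeloid nuclear differentiation antigen, had 19.5, 16.8 and 21.1 CPM in Mock. It had 38.8, 38.7 and 40.5 CPM in AOA, and 90.9, 68.6 and 60.4 CPM in HT-DNA+AOA. Again these groups did not overlap. Its values were 15.1, 16.7 and 15.3 CPM in AOA+Asp, 15.01, 20.0 and 16.4 CPM in HT-DNA, and 14.7, 17.4 and 18.2 CPM in HT-DNA+AOA+Asp. From Mock downwards in the order of means, each group overlapped with its neighbour, while AOA+Asp lay just below Mock without overlap.

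Ifi207 had another order of groups. It had 11.04, 11.4 and 10.9 CPM in Mock, 6.73, 8.24 and 8.84 in AOA, and 9.004, 9.25 and 9.27 in AOA+Asp. AOA libraries were thus the lowest for this member, below every Mock library. With DNA it had 19.9, 26.1 and 21.4 CPM in HT-DNA, 116.5, 69.8 and 69.9 in HT-DNA+AOA, and 23.6, 25.5 and 22.4 in HT-DNA+AOA+Asp. The 3 groups that received DNA lay above the 3 that did not, and HT-DNA+AOA lay above all others.

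Ifi204 and Ifi211 were also highest in HT-DNA+AOA. Ifi204, a cofactor of DNA sensing through STING in macrophages, had 47.1, 53.5 and 55.4 CPM in Mock, 58.5, 54.4 and 72.8 in AOA, and 58.9, 68.5 and 65.0 in HT-DNA. It had 152, 135 and 122 CPM in HT-DNA+AOA, above the other 15 libraries. In AOA+Asp it had 56.6, 53.0 and 52.5 CPM, and in HT-DNA+AOA+Asp 57.5, 70.3 and 75.9. Below HT-DNA+AOA, each group overlapped with its neighbour in the order of means, while HT-DNA lay above Mock without overlap.

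Ifi211 had 14.7, 14.6 and 16.6 CPM in Mock, 15.7, 16.6 and 18.5 in AOA, and 16.7, 17.5 and 17.7 in AOA+Asp. It had 17.99, 19.5 and 19.2 CPM in HT-DNA, 41.8, 33.7 and 32.6 in HT-DNA+AOA, and 19.2, 19.7 and 19.7 in HT-DNA+AOA+Asp. HT-DNA+AOA again stood above the other groups, and HT-DNA lay above Mock without overlap.

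Ifi205 was scarcely detected outside 1 group. Its rounded counts were 27, 21 and 28 in HT-DNA+AOA, 4, 1 and 0 in HT-DNA, 1, 0 and 2 in AOA, 2, 2 and 0 in HT-DNA+AOA+Asp, and 0, 0 and 1 in both Mock and AOA+Asp. A count of 0 allows up to 3 counts. Ifi205 passed the filter on low counts only through HT-DNA+AOA, so it had to differ there, and it is given by its counts. Summed over the libraries and scaled to their totals, the ratio of HT-DNA+AOA to HT-DNA was 17.5 (76 against 5 counts, exact 95% interval 7.18 to 55.5), and the ratio to AOA was 27.4 (76 against 3 counts, 9.01 to 135.6). Of the 31-base sequences of Ifi205, 20.5% also occur in Ifi211, and 49.5% of those of Ifi211 occur in Ifi205. What part of the reads counted for Ifi205 came from Ifi211 was not tested. These intervals cover counting error only.

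**Figure D2:**
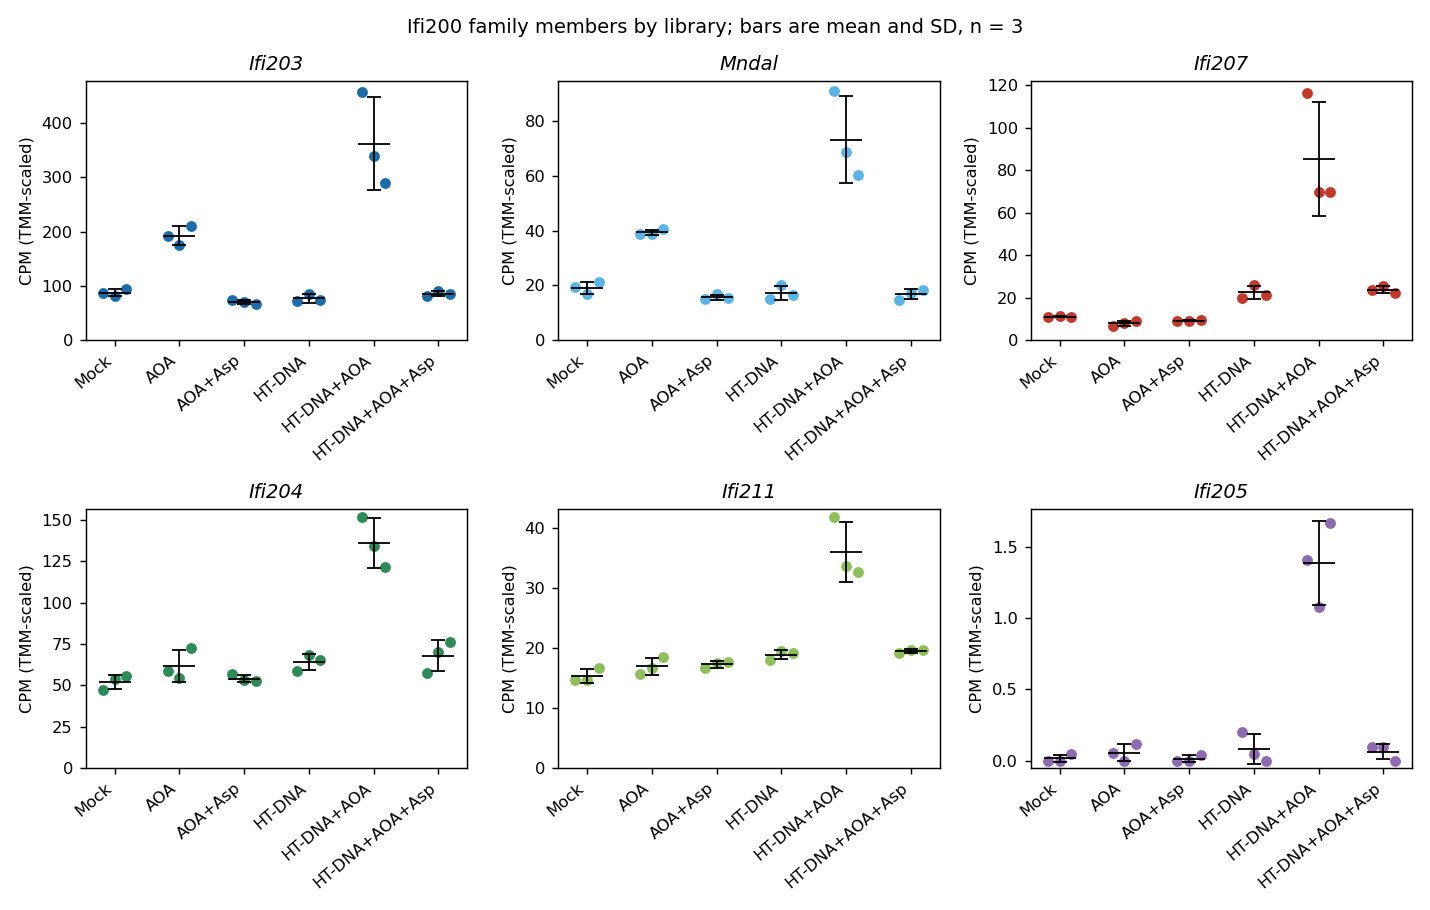
CPM of each member in every library (dots), by group, with the mean and SD of 3 libraries as bars; each panel has its own linear axis. HT-DNA+AOA is the highest group for each of the 6 members, AOA is also raised for Ifi203 (175 to 209.6 CPM) and Mndal (38.7 to 40.5 CPM), and Ifi207 is raised in all 3 groups with DNA.

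The comparison of AOA with Mock asked what the inhibitor did without added DNA. With edgeR's quasi-likelihood test on all 18 libraries, 3 of 6 members passed an adjusted p of 0.05, beside 45.7% of all genes tested. Ifi203 rose 2.20-fold (log2 fold change 1.14, SE 0.12, adjusted p = 7.6e-07) and Mndal rose 2.06-fold (1.04, SE 0.13, adjusted p = 5.0e-06). Ifi207 fell by 0.49 on the log2 scale (SE 0.18, adjusted p = 0.035), and its groups did not overlap. Leaving out 1 library ended the Ifi207 call in 5 of 6 cases, with adjusted p-values up to 0.14, while the value stayed between -0.57 and -0.39. Ifi204 (log2 fold change 0.25, SE 0.12) and Ifi211 (0.14, SE 0.10) did not pass. Over the 5 members other than Ifi205 the median log2 fold change was 0.25, beside 0.015 over all genes.

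With aspartate added to AOA, the same pair came down. Of the 6 members, 2 were lower in AOA+Asp than in AOA, beside 22.8% of all genes tested. Ifi203 fell by 1.45 on the log2 scale (SE 0.13, edgeR adjusted p = 6.1e-08) and Mndal by 1.32 (SE 0.14, adjusted p = 4.3e-07). For Ifi207 the difference was 0.21 (SE 0.19) and did not pass. Between AOA+Asp and Mock, edgeR called 0 of 6 members, beside 6.47% of all genes, 1 member (Ifi203) had an unadjusted p under 0.05, and DESeq2 also called 0. The values were -0.31 (SE 0.12, adjusted p = 0.15) for Ifi203 and -0.28 (SE 0.14, adjusted p = 0.26) for Mndal. When only these groups were fitted, both passed, at -0.31 and -0.29, and the share of all genes called in that fit is not given here. In AOA+Asp both lay below Mock without overlap, as did Ifi207, while Ifi211 lay above Mock without overlap. The share of all genes whose groups do not overlap in this comparison is not given here, so no shift of the members is read from it.

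HT-DNA against Mock gave the response to DNA without AOA. Here 3 of 6 members were higher, beside 24.2% of all genes tested. Ifi207 rose 2.02-fold (log2 fold change 1.01, SE 0.17, edgeR adjusted p = 0.00013). Ifi211 and Ifi204 each differed by 0.30 (SE 0.10 and 0.11, adjusted p = 0.015 and 0.037). Those smaller differences were lost, leaving 1 member, without Mock replicate 1 or Mock replicate 2, and Ifi204 was also lost without HT-DNA replicate 2 or 3. Ifi203 (-0.19, SE 0.12) and Mndal (-0.15, SE 0.14) did not pass, and their groups overlapped with Mock.

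The scaling of the libraries matters for these small values. With library totals in place of TMM, the median log2 difference of all genes between HT-DNA and Mock moved from -0.0076 to -0.12, and the share of calls that were higher moved from 50.2% to 35.2%. Ifi211 and Ifi204 were then at 0.19 and did not pass, whereas each lay 0.31 above the median of all genes under either scaling. Ifi207 passed under both, at 1.01 and 0.90. For AOA against Mock the median moved from 0.015 to -0.12 and the share of higher calls from 49.1% to 32.1%, and Ifi203, Mndal and Ifi207 stayed past the threshold.

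In cells that had AOA, DNA raised each member that could be tested. All 6, counting Ifi205, which had to differ, were higher in HT-DNA+AOA than in AOA, beside 6.46% of all genes tested, a comparison that does not use the HT-DNA group. Ifi207 had the largest difference apart from Ifi205, at 10.8-fold (log2 fold change 3.43, SE 0.17, edgeR adjusted p = 3.2e-11). Ifi204 rose 2.20-fold (1.14, SE 0.11, adjusted p = 9.3e-07) and Ifi211 2.13-fold (1.09, SE 0.09, adjusted p = 9.6e-08). Ifi203 rose 1.88-fold (0.91, SE 0.12, adjusted p = 3.8e-05) and Mndal 1.86-fold (0.90, SE 0.13, adjusted p = 7.6e-05), from AOA levels that were already raised. The median over the 5 members other than Ifi205 was 1.09, beside -0.0086 over all genes. With the HT-DNA group left out of the fit all 6 members were still called.

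Against HT-DNA, all 6, again counting Ifi205, were also higher in HT-DNA+AOA, beside 22.8% of all genes tested. The differences were 4.71-fold for Ifi203 (log2 fold change 2.24, SE 0.13), 4.27-fold for Mndal (2.09, SE 0.14) and 3.80-fold for Ifi207 (1.93, SE 0.16). Ifi204 and Ifi211 differed less, by 1.08 (SE 0.11) and 0.93 (SE 0.09), and for these 5 members edgeR adjusted p-values were 3.0e-07 or smaller. In CPM the HT-DNA+AOA libraries spread more than those of other groups, with replicate 1 the highest for 5 of the 6 members. Without that library the values were 2.03 for Ifi203, 1.91 for Mndal and 1.63 for Ifi207, and all 6 members were still called. In RNA from whole cultures, a change in the cells that respond and a change in RNA per cell cannot be told apart.

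The effect of AOA differed with and without DNA. The interaction term, which subtracts what AOA did alone from what it did in cells with HT-DNA, passed for 5 of 6 members in the upward direction, beside 7.23% of all genes tested. It was 2.42 for Ifi207 (log2, SE 0.24, edgeR adjusted p = 8.3e-06), 1.10 for Ifi203 (SE 0.17, adjusted p = 0.00068) and 1.05 for Mndal (SE 0.19, adjusted p = 0.0017). For Ifi204 it was 0.84 (SE 0.16, adjusted p = 0.0029) and for Ifi211 0.79 (SE 0.13, adjusted p = 0.0012). Ifi207 was thus lower with AOA alone and higher with AOA and DNA. Ifi205 had too few counts outside HT-DNA+AOA for this term to pass (adjusted p = 0.50).

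With aspartate added to HT-DNA and AOA, the members came down. All 6, Ifi205 counted as before, were lower in HT-DNA+AOA+Asp than in HT-DNA+AOA, beside 23.9% of all genes tested. Mndal fell by 2.13 on the log2 scale (SE 0.14), Ifi203 by 2.08 (SE 0.13) and Ifi207 by 1.84 (SE 0.16), and Ifi204 and Ifi211 fell by 1.00 (SE 0.11) and 0.89 (SE 0.09), with edgeR adjusted p-values of 1.1e-06 or smaller for these 5. The ratio of HT-DNA+AOA to HT-DNA+AOA+Asp for Ifi205 was 21.5 (76 against 4 counts, exact 95% interval 8.05 to 80.8). Between HT-DNA+AOA+Asp and HT-DNA, edgeR called 0 of 6 members, beside 46.6% of all genes tested, none had an unadjusted p under 0.05, and DESeq2 called 0. The difference was 0.16 for Ifi203, with an approximate 95% interval from -0.089 to 0.40, and 0.084 for Ifi207, from -0.23 to 0.40.

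With AOA and aspartate in both arms, DNA still raised 1 member, beside 1.93% of all genes tested. This was Ifi207, at 2.60-fold (log2 fold change 1.38, SE 0.17, edgeR adjusted p = 3.8e-05). Ifi204 (0.33, SE 0.11, adjusted p = 0.14) and Ifi203 (0.28, SE 0.13, adjusted p = 0.29) had groups that did not overlap and did not pass. Both passed when only these groups were fitted, which gave 3 members. The shares of all genes called in that fit, or without overlap, are not given here. Mndal was at 0.093 (SE 0.14). Ifi207 thus passed for DNA against no DNA in each of the 3 settings, of which only 1 uses the HT-DNA group.

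**Figure D3:**
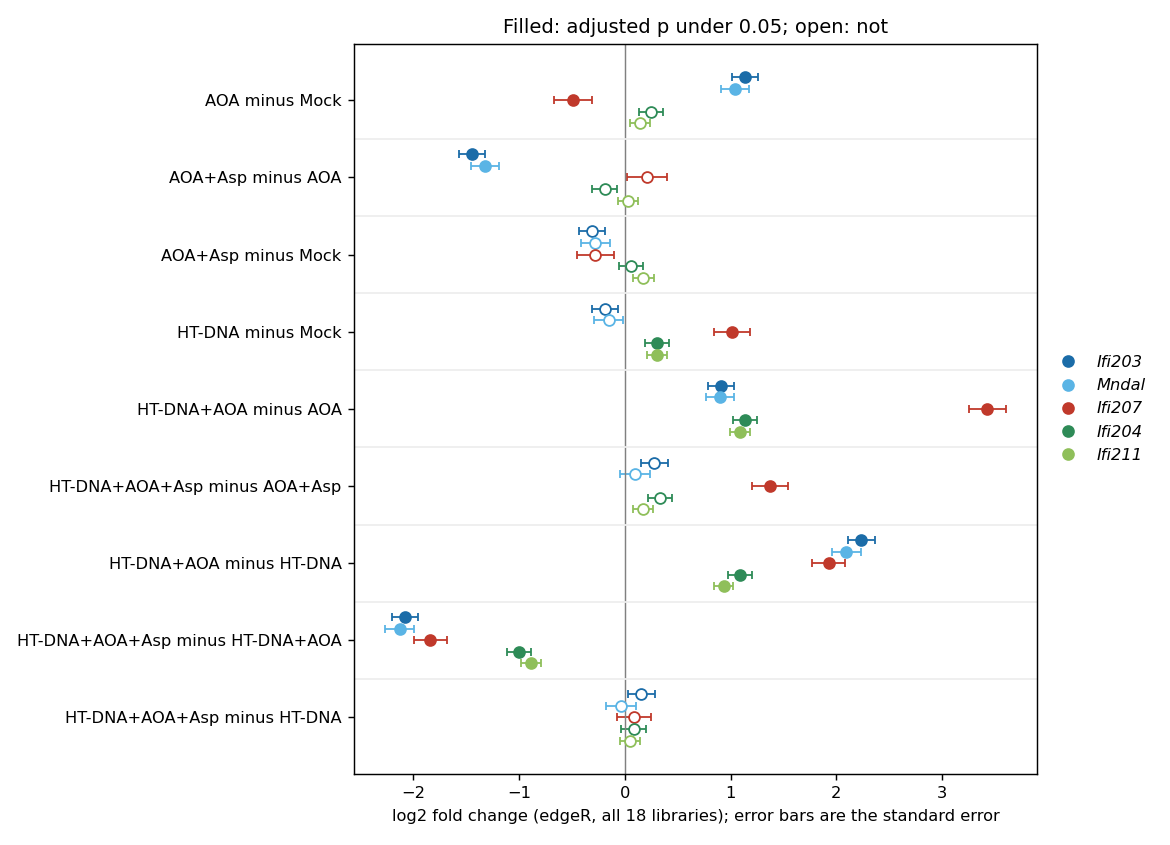
Log2 fold change of 5 members in the 9 comparisons (dots, with the standard error as bars), filled where the edgeR adjusted p is under 0.05 and open where it is not; Ifi205 is left out because of its low counts. Ifi203 and Mndal are at 1.14 and 1.04 for AOA minus Mock, while Ifi207 lies on the other side of 0 there and reaches 3.43 for HT-DNA+AOA minus AOA.

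The counts of the 6 members were also summed into 1 row, which does not depend on how reads were divided among them. As for each member, HT-DNA+AOA was the highest group. The sum was 185 ± 11.8 CPM in Mock, 319 ± 29.1 in AOA, 167 ± 4.92 in AOA+Asp, 199.6 ± 18.5 in HT-DNA, 694 ± 148 in HT-DNA+AOA and 214 ± 15.3 in HT-DNA+AOA+Asp (SD, n = 3). It rose 1.72-fold with AOA (log2 fold change 0.78, SE 0.11, edgeR adjusted p = 2.0e-05) and 3.48-fold with AOA on top of DNA (1.80, SE 0.12, adjusted p = 5.3e-10). Between HT-DNA and Mock the sum differed by 0.11 (SE 0.11, adjusted p = 0.45) and did not pass, and single members lay on either side of 0. The interaction was 1.02 (SE 0.16, adjusted p = 0.00065). Ifi203 made up 47.2% of the sum in Mock and 60.4% in AOA, and Ifi207 made up 6.04% in Mock, 2.50% in AOA and 12.2% in HT-DNA+AOA.

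Ratios within a library set the members against each other free of library scaling. The ratio of Mndal to Ifi203 counts ran only from 0.181 to 0.240 over the 18 libraries, although Ifi203 itself ran from 67.4 to 458 CPM. The ratio of Ifi211 to Ifi204 ran from 0.250 to 0.338. The ratio of Ifi207 to Ifi203 moved more, from 0.115 to 0.141 in Mock, 0.0350 to 0.0470 in AOA, 0.279 to 0.305 in HT-DNA and 0.206 to 0.255 in HT-DNA+AOA. On the log2 scale it was lower by 1.63 in AOA than in Mock and higher by 1.19 in HT-DNA than in Mock, with no overlap (exact permutation test, two-sided, p = 0.1 for each, adjusted p = 0.21 over 15 tests). With 3 libraries against 3 this test cannot go below 0.1. The narrower ratios also differed without overlap in HT-DNA+AOA against HT-DNA, where Mndal to Ifi203 was lower by 0.13 and Ifi211 to Ifi204 by 0.16 on the log2 scale, with the same exact p of 0.1. The part of shared reads in these ratios was not tested.

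**Figure D4:**
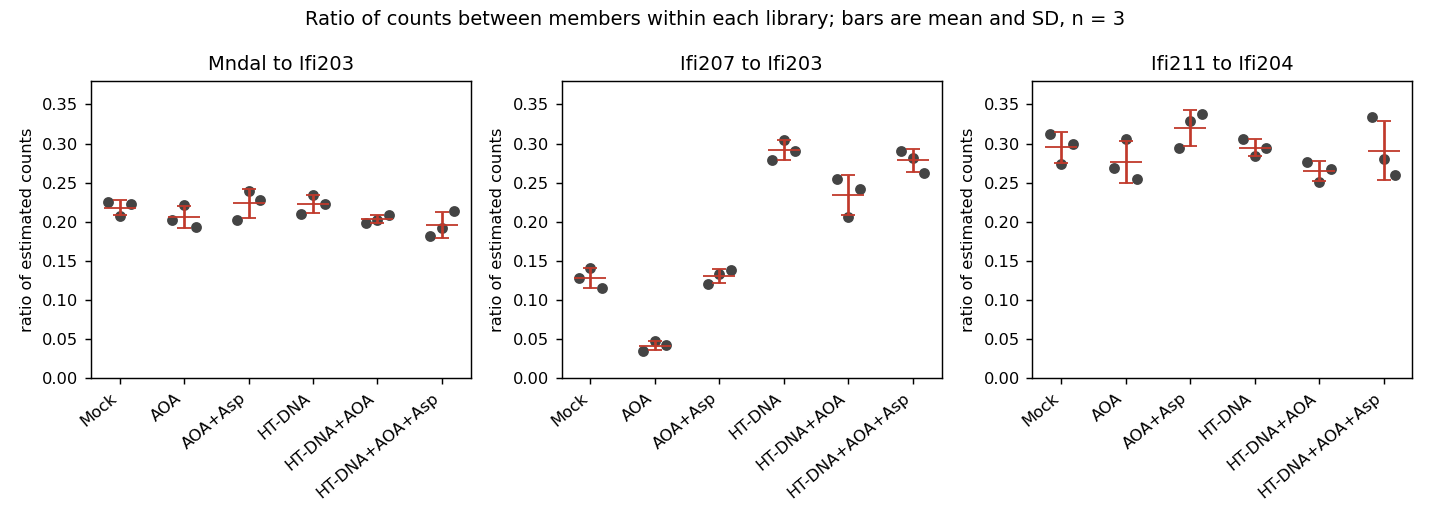
Ratio of estimated counts between members within each library (dots), by group, with the mean and SD of 3 libraries as red bars. Mndal to Ifi203 stays between 0.181 and 0.240 and Ifi211 to Ifi204 between 0.250 and 0.338, whereas Ifi207 to Ifi203 runs from 0.0350 in AOA to 0.305 in HT-DNA.

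The other family genes in the table did not all follow. Of 8, only 4 were tested, and Ifi206, Ifi208, Ifi213 and Ifi214 had at most 6 counts in any library. In HT-DNA+AOA against HT-DNA, 3 of the 4 were higher, beside 22.8% of all genes, and 1 of these 3, Ifi209, passed the filter only through HT-DNA+AOA and so had to differ. Ifi202b, whose protein lacks a pyrin domain and which shares no 31-base sequence with the members, had 177, 153 and 156 CPM in HT-DNA and 225, 259 and 259 CPM in HT-DNA+AOA, without overlap (0.61, SE 0.13, edgeR adjusted p = 0.00069). Against Mock, with 91.1, 91.3 and 119.8 CPM, it rose by 0.68 with HT-DNA (SE 0.13, adjusted p = 0.00043). In the comparisons without the HT-DNA group, DNA raised it by 1.17 in cells with AOA (SE 0.13, edgeR adjusted p = 4.2e-06), and the difference with AOA and aspartate was 0.26 (SE 0.13, adjusted p = 0.36) and did not pass. Its interaction was 0.49 (SE 0.18, adjusted p = 0.074) and did not pass.

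Aim2 was lower in HT-DNA than in Mock, without overlap. It had 55.3, 58.2 and 55.1 CPM in Mock, 33.6, 38.4 and 33.6 CPM in HT-DNA, and 55.3, 39.9 and 26.3 CPM in HT-DNA+AOA. It fell by 0.68 on the log2 scale with HT-DNA (SE 0.17, edgeR adjusted p = 0.0039), and HT-DNA+AOA overlapped with HT-DNA (0.21, SE 0.18, adjusted p = 0.36). Without the HT-DNA group its DNA response did not pass, at -0.066 in cells with AOA (SE 0.17, edgeR adjusted p = 0.86) and -0.29 with AOA and aspartate (SE 0.17, adjusted p = 0.46). The pseudogene Ifi203-ps, with 13, 15 and 16 counts in Mock and 61, 69 and 31 in HT-DNA+AOA, was higher in HT-DNA+AOA than in HT-DNA (2.15, SE 0.37, adjusted p = 0.00010), beside the share of its sequence that is also in Ifi203. Ifi209 had 18, 27 and 23 counts in HT-DNA+AOA and at most 10 elsewhere.

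Among 15 genes of DNA sensing and interferon signalling, 14 were tested, and they were less uniform. In HT-DNA+AOA against HT-DNA, 8 were higher and 3 lower, beside 22.8% and 22.7% of all genes (median log2 fold change 0.35, beside 0.024 over all genes). With aspartate added to HT-DNA and AOA, 5 were higher and 9 lower, beside 23.7% and 23.9% of all genes. Irf7, the regulatory factor that amplifies type I interferon, had 4.55, 4.97 and 4.98 CPM in HT-DNA, 26.0, 19.6 and 27.3 in HT-DNA+AOA, and 3.97, 3.90 and 3.74 in HT-DNA+AOA+Asp, where HT-DNA+AOA was higher than HT-DNA by 2.33 (SE 0.14, edgeR adjusted p = 2.5e-10). Zbp1, a sensor of left-handed nucleic acids, rose by 1.90 in that comparison (SE 0.21, edgeR adjusted p = 5.0e-07). With AOA alone, where Ifi203 and Mndal rose, 3 of the 14 were higher and 6 lower, beside 22.5% and 23.2% of all genes. The higher ones were Zbp1 (1.75, SE 0.57, edgeR adjusted p = 0.018), with 4, 9 and 3 counts in AOA and 2, 0 and 3 in Mock, Ifnar2 (0.32, SE 0.08) and Irf3 (0.27, SE 0.09). Irf7 (0.19, SE 0.18) did not pass, and Stat2 fell by 0.89 (SE 0.11, adjusted p = 2.2e-06). Ifnb1 had 6, 4 and 2 counts in HT-DNA+AOA, 1 in a single HT-DNA+AOA+Asp library and 0 in the other 14 libraries.

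Of 7 inflammasome genes, 4 were tested. In HT-DNA+AOA against HT-DNA 2 were higher and 1 lower, beside 22.8% and 22.7% of all genes. Nlrp3, an inflammasome sensor, had 5, 18 and 13 counts in HT-DNA+AOA, 1, 2 and 2 in HT-DNA, 13, 5 and 4 in AOA and 1 in each HT-DNA+AOA+Asp library. Nlrp3 was higher in HT-DNA+AOA than in HT-DNA by 2.96 on the log2 scale (SE 0.68) and fell by 3.61 with aspartate (SE 0.74). It passed the filter on low counts only through libraries of AOA and HT-DNA+AOA, where it is high, so its calls add no support. Casp1, the caspase activated by inflammasomes, had 9.52, 10.0 and 10.96 CPM in Mock and 4.04, 3.09 and 4.07 CPM in AOA, and it fell by 1.45 on the log2 scale (SE 0.13, edgeR adjusted p = 8.8e-08). Casp4 rose by 1.27 in HT-DNA+AOA against HT-DNA (SE 0.14, adjusted p = 5.2e-07). Pycard, the adaptor ASC to which pyrin domains bind, had at most 8 counts in any library, and Il1b had at most 2.

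Outside the family, the genes whose log2 CPM followed each member most closely over the 18 libraries differed between members. For Ifi203 they were Cxcl2 (Pearson r = 0.978), Nfkbiz (0.976) and Nabp1 (0.971), and for Mndal Cxcl2 (0.970), H2-Q4 (0.966) and Lcn2 (0.965). For Ifi207 they were Znfx1 (0.983), Igtp (0.981) and Rigi (0.980). Ifi204 was followed by Slfn5 (0.958), Phf11d (0.945) and Irf7 (0.945), and Ifi211 by Irf7 (0.962), Slfn5 (0.949) and Cxcl11 (0.946). The same libraries and the same 6 treatments lie behind each of these values, so they describe a likeness of pattern over the groups. Between members, r was 0.993 for Ifi203 and Mndal, 0.970 for Ifi204 and Ifi211, and 0.568 for Ifi203 and Ifi207.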

How the data were processed

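The authors deposited 1 column of estimated counts per gene for each of 18 libraries, without normalization, and 11.6% of the values were fractional. TRIzol served for extraction and Majorbio for sequencing. The aligner, counting program and genome build are not given in the sources used here. Groups came from the labels. Counts were rounded and fitted in R 4.3.3 with edgeR 4.0.16 (filterByExpr, minimum count 10 and minimum total 15; TMM; robust quasi-likelihood test; all 18 libraries; Benjamini-Hochberg threshold 0.05 over 14263 genes). The design had assumed whole counts. Depth was 17901605 to 24057343 counts per library, and SE came from the fit.

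The members, the gene lists (other family genes, signalling, inflammasome, cell type markers) and the rule for named genes were chosen with earlier results of these data known. The rule took the members, up to 3 called genes of each list with the largest change in a comparison, and 3 genes outside the family with the highest r to each member (log2 CPM, prior count 2, at least 1 CPM in the highest group); Ifi202b, Aim2, Ifi203-ps, Ifi209, Ifnb1, Ifnar2, Irf3, Pycard, Il1b and the fibroblast markers were named as list members beside it. Shared sequence was counted as exact matches of 31 bases in GENCODE vM21 transcripts, lengths are merged exons of that release, and promoters are RefSeq windows of GRCm38.p6, aligned globally with free end gaps. The authors' group means in the table were not used. One gene that the rule names is not reported here. The steps were tested on simulated counts. Alternatives were DESeq2 1.42.0, RLE, library totals, other filters, a fold threshold, only the groups compared, a replicate block and leaving out each library.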

Additional observations from a re-analysis of the deposited data

Results flagged for a closer look

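The effect of AOA differed between cells with and without HT-DNA for 5 members, by the interaction term of the edgeR fit across all 14263 genes. On the log2 scale the effect with HT-DNA exceeded that without it by 2.42 for Ifi207, 1.10 for Ifi203, 1.05 for Mndal, 0.84 for Ifi204 and 0.79 for Ifi211. For Ifi207 the sign turned, from -0.49 without HT-DNA to 1.93 with it, and the former call was lost when any of 5 libraries was left out. The term uses the HT-DNA libraries, which differed from Mock in 48.2% of the genes tested, and their part in it was not tested. The rise from AOA to HT-DNA+AOA, which does not use them, passed for each of these members.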

How the results depend on the processing

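Of 833 values of single members under an alternative, 799 kept their direction and their side of the threshold, 13 lost and 9 gained a call, and 12 changed sign, each of them a value that had not passed. The calls of all 6 members in HT-DNA+AOA against HT-DNA, against AOA and against HT-DNA+AOA+Asp held in count under DESeq2, RLE, library totals, no filter, the replicate block, the fit of only the groups compared and with any library left out. The added fold threshold left 5 of them against HT-DNA and against HT-DNA+AOA+Asp and 4 against AOA. A requirement of 10 counts in every library removes Ifi205 from the test, and with it 1 of the calls. Ifi205 had to differ in each of these comparisons, so its calls add no support. Of the 5 other members, all 5 passed in each in the main fit. The count of members for HT-DNA against Mock fell from 3 to 1 when a log2 change of 1 or more in either direction was also required and with library totals, and ran from 1 to 3 with a library left out. For the interaction it fell from 5 to 3 with the fold threshold. For AOA+Asp against Mock it rose from 0 to 1 without a filter and to 2 with only the groups compared, and for HT-DNA+AOA+Asp against AOA+Asp from 1 to 2 and to 3. The shares of all genes called in these fits are not given here.

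The summed members differed between HT-DNA and Mock by -0.00111 with library totals, and between HT-DNA+AOA+Asp and HT-DNA by -0.0036 when the whole family was summed, an alternative chosen after seeing the data, like the fit without the HT-DNA group. With library totals Ifi205 was at -0.017 for AOA+Asp against Mock and Mndal at 0.018 for HT-DNA+AOA+Asp against HT-DNA. With 1 library left out, Ifi205 ran from -1.79 to 1.82 for AOA+Asp against Mock and from -0.88 to 1.28 for HT-DNA+AOA+Asp against HT-DNA, Ifi204 from -0.011 to 0.10 and from -0.0059 to 0.19 in the same comparisons, Mndal from -0.12 to 0.083 in the latter, and Ifi211 from -0.019 to 0.095 for AOA+Asp against AOA. The cause was not tested.

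Replicate numbers showed no general pairing of the libraries. Deviations of same-numbered libraries correlated by -0.11 to 0.28 (median 0.0081, beside 0.0080 for other numbers), above 0.1 in 7 of 45 pairs. Of 18 libraries, 9 correlated best with their own number, so these values cannot settle whether some groups were paired. With the replicate block the counts were 3, 2, 0, 3, 6, 1, 6, 6 and 0 over the 9 comparisons and 5 for the interaction, as without it. Depth limits Ifi205, whose values outside HT-DNA+AOA rest on at most 4 counts.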
